A study of Mus musculus with 4 samples.

Results

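The genes described here are the matrix metalloproteases, the ADAMTS proteases and the tissue inhibitors of metalloproteases (TIMPs), read in single cells of a mouse pancreatic tumour model. They were taken by symbol: Mmp with a number and an optional a or b, Adamts with a number, and Timp with a number from 1 to 4. This gave 45 of the 32285 genes in the files, namely 22 Mmp, 19 Adamts and 4 Timp genes. The tumours grew under the skin of female C57BL/6 mice of 6 to 7 weeks from Pan02, a mouse pancreatic cancer line, and mice entered their groups at a tumour size of about 50 mm3. The anti-PD-1 group received an antibody against PD-1, a checkpoint receptor of T cells, the anti-LIF group an antibody against the cytokine LIF, the combo group both antibodies, and the control group IgG. The protocol gives 200 µg of anti-PD-1 together with 25 mg/kg of IgG or anti-LIF, 3 times a week, and does not say whether mice given 1 antibody also had IgG. Each group is 1 library that combined 3 samples. The tumours sat under the skin and not in the pancreas, and all came from 1 cell line. With 1 library per group, no difference between groups could be tested, and every comparison is between libraries.

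Matrix metalloproteases are zinc enzymes that cut collagens, elastin, laminins and many proteins of the cell surface. Most are made as inactive precursors, and TIMPs block the active enzymes. ADAMTS enzymes are secreted relatives that cut proteoglycans such as versican and aggrecan or trim procollagens. Pancreatic tumours are rich in matrix, and their fibroblasts and macrophages are known sources of both families.

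The libraries held 57720774 to 111164731 unique molecular identifiers (UMIs, counted RNA molecules). After filters on genes and mitochondrial RNA, 14392 anti-PD-1, 14014 anti-LIF, 16397 combo and 18640 control cells were kept. Of 61780 distinct barcodes of kept cells, 1646 occurred in more than 1 library. Cells were placed in classes by marker lists that hold none of the 45 genes, and 50025 of the 63443 kept cells fell in 1 class. Cells left out for lack of markers were 22.9% (anti-PD-1), 15.4% (anti-LIF), 14.9% (combo) and 21.1% (control) of the kept cells, and those with markers of several classes 1.82% to 3.65%. There were 2239 anti-PD-1, 1692 anti-LIF, 1763 combo and 4839 control cancer cells. Fibroblasts numbered 1167 (anti-PD-1), 2996 (anti-LIF), 3317 (combo) and 1068 (control), and macrophages or monocytes 4237 (anti-PD-1), 4117 (anti-LIF), 4292 (combo) and 572 (control). Xist, made by the cells of the female hosts, was at 3.63 CPM in cancer cells, against 139 CPM in fibroblasts and 132 CPM in macrophages. CPM means UMIs of a gene per 1000000 UMIs of a class in a library. Intervals in brackets are exact 95% intervals and cover counting error only. Ratios are log2 ratios of CPM with 0.5 UMIs added, and "past 2-fold" means 1 or more either way for a gene with at least 50 UMIs in the class over the 4 libraries. All ratios over control share the 1 control library.

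Of the 45 genes, 30 had at least 50 UMIs in a class of 200 or more cells and reached 10 CPM there in 1 library or more. The other 15 had 0 to 406 UMIs in all kept cells: Mmp1b, Mmp7, Mmp10, Mmp16, Mmp17, Mmp20, Mmp21, Mmp24, Mmp28, Adamts3, Adamts7, Adamts13, Adamts17, Adamts18 and Adamts20. Of these, 9 had under 100 UMIs, and Mmp1b, a collagenase gene of rodents, had 0. Fibroblasts held 91.9% of the UMIs of Mmp2 (a gelatinase), 94.4% of Mmp3 (stromelysin-1, which also activates other pro-MMPs), 92% of Mmp23, 91.4% of Adamts12 and 92.9% of Adamts15. They also held 88.4% of Adamts2, which removes the amino-terminal propeptide of procollagen I, and 86.4% of Adamts5, an aggrecan-cutting enzyme. Neutrophils held 72.3% of Mmp8, the neutrophil collagenase, and endothelial cells 73.8% of Timp4. Mmp14, the membrane-bound activator of pro-MMP2, was more spread, with 42.5% of its UMIs in fibroblasts and 34.2% in cancer cells. Such shares depend on how many cells of a class were caught and on their depth.

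**Figure D1:**
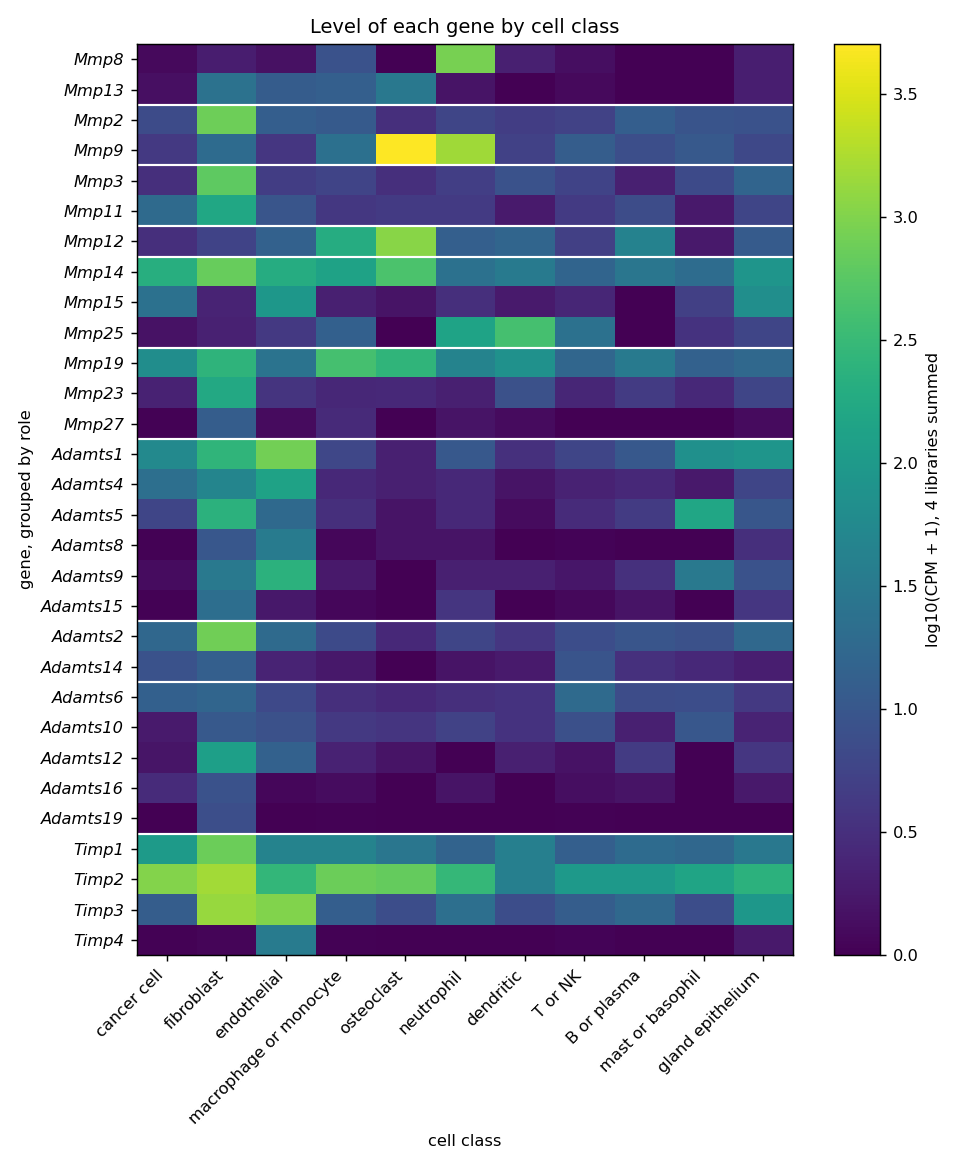
Level of the 30 described genes (rows, grouped by role) in 11 cell classes (columns), as log10 of CPM + 1 with the 4 libraries summed; colours are to be compared along a row. Mmp8 is highest in neutrophils, Mmp9 in osteoclasts and then neutrophils, Mmp2 and Mmp3 in fibroblasts, and Timp4 in endothelial cells.

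The heat map of levels by class shows for each gene which class was highest per UMI. Mmp2 was at 771 CPM (764 to 779) in fibroblasts over all libraries, and the next classes were B or plasma cells at 11.7 CPM (7.25 to 17.9) and endothelial cells at 11.7 CPM (9.23 to 14.5), whose intervals overlap. Timp2, an inhibitor that also helps Mmp14 to activate pro-MMP2, was at 1550 CPM (1540 to 1560) in fibroblasts, 1050 CPM (1040 to 1050) in cancer cells and 736 CPM (728 to 744) in macrophages, 3 levels whose intervals do not overlap. T and NK cells, used below as the background for free RNA, had 98.3 CPM of Timp2, 14.4 CPM of Mmp14 and 4.39 CPM of Mmp2. Mmp9, the other gelatinase, was at 5020 CPM (4920 to 5130) in osteoclasts, 1510 CPM (1450 to 1570) in neutrophils and 22.4 CPM (21.1 to 23.8) in macrophages. The osteoclast class, gated on markers such as Acp5 and Ocstamp, had 194 cells, under the size set for naming genes, and was picked after its values were seen because it held 56.9% of all Mmp9 UMIs. In it, 93 of 110 anti-PD-1, 18 of 40 anti-LIF, 21 of 28 combo and 11 of 16 control cells had an Mmp9 UMI.

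Of the 45 genes, 9 lie in 1 stretch of chromosome 9 between positions 7272514 and 7699585 (GRCm38): Mmp13, Mmp12, Mmp1b, Mmp3, Mmp10, Mmp8, Mmp27, Mmp20 and Mmp7, in this order. These neighbours were used by different cells, with most UMIs of Mmp3, Mmp10 and Mmp27 in fibroblasts, of Mmp12 in macrophages and of Mmp8 in neutrophils. The start regions of 6 of them are printed for this reason, from 100 bases before to 50 bases from the annotated start (RefSeq, GRCm38.p6, plus strand). Capitals mark the letters TGANTCA, bound by AP-1 (Fos and Jun) proteins. The regions are chr9:7272414-7272563 for Mmp13, chr9:7347274-7347423 for Mmp12, chr9:7445722-7445871 for Mmp3, chr9:7502242-7502391 for Mmp10, chr9:7558329-7558478 for Mmp8 and chr9:7571296-7571445 for Mmp27.
Mmp13: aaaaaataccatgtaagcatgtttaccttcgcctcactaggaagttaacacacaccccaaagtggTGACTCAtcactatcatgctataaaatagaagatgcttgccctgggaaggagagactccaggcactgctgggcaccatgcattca
Mmp12: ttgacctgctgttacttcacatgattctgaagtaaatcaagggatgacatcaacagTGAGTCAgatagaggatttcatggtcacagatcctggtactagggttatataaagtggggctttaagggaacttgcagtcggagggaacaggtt
Mmp3: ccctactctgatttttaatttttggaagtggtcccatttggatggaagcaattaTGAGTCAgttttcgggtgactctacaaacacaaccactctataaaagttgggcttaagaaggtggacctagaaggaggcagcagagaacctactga
Mmp10: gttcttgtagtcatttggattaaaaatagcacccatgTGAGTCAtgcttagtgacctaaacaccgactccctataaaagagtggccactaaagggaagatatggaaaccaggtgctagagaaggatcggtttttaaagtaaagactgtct
Mmp8: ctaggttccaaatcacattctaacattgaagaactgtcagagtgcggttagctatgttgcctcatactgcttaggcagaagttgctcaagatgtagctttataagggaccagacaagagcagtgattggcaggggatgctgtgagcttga
Mmp27: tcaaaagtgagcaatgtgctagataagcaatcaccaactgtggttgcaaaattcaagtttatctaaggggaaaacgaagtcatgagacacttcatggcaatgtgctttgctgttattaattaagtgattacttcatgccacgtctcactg

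In these regions the AP-1 letters begin 35 bases before the start in Mmp13, 44 in Mmp12, 46 in Mmp3 and 63 in Mmp10, and the windows of Mmp8 and Mmp27 hold none. RefSeq promoter windows, from 250 bases before to 50 bases after the start, matched 31 of the 45 genes and were searched on both strands. TGANTCA occurred in 7 of the 9 neighbours, in 0 of the other 22 matched genes and in 7.81% of all 32817 promoters. The letters TATAAA occurred in 8 of the 9 neighbours, in 2 of the other 22 and in 13.6% of all promoters. In the printed regions they begin 29 bases before the start in Mmp10, 16 in Mmp13 and 7 in Mmp3. In Mmp8 they lie on the other strand, 3 bases before the start, and in Mmp12 they begin 4 bases after it. Whether the annotated starts are exact was not tested. TTCNNNGAA, bound by the STAT proteins that act downstream of LIF, occurred in 1 of the 31 genes, Mmp23, and in 8.29% of all promoters. Mmp12 and Mmp7 have 2 windows each, of which 1 holds both TGANTCA and TATAAA and the other neither, and a gene was counted if either window matched, while the shares of all promoters count windows. The Mmp12 region printed above was chosen because its window holds TGANTCA. The other Mmp12 window, chr9:7344147-7344446, is not printed. A match describes the letters only and says nothing about binding.

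In cancer cells 25 of the 45 genes had enough UMIs to be compared, and the named genes past 2-fold over control were Mmp19 and Adamts1, lower, and Mmp15, higher. Against control, 3 genes were higher and 2 lower in the anti-PD-1 library, where 5.96% and 3.3% of all 12810 genes were. With anti-LIF 5 were higher and 4 lower (10.6% and 6.32% of all genes), and in combo 6 were higher and 3 lower (7.93% and 5.55%). Combo over anti-PD-1 had 4 higher and 3 lower (3.11% and 3.83%), and combo over anti-LIF had 2 higher and 1 lower (2.41% and 2.28%). The others past 2-fold, apart from Timp3 in combo over anti-PD-1, stayed under 10 CPM in each library. The median log2 ratio over control of the 25 genes was 0.24 with anti-PD-1, 0.41 with anti-LIF and 0.41 in combo, beside 0.18, 0.21 and 0.19 for all genes, so cancer cell ratios are best read against that shift.

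Mmp19, which cuts basement membrane proteins, was at 46.3 CPM (43.8 to 48.9) in anti-PD-1, 13.2 CPM (11.5 to 15) in anti-LIF, 18.9 CPM (17.3 to 20.6) in combo and 110 CPM (107 to 112) in control cancer cells. Every treated library was below control, and both libraries with anti-LIF were below anti-PD-1. The log2 ratios over control were -1.24 (-1.33 to -1.16) with anti-PD-1, -3.05 (-3.25 to -2.86) with anti-LIF and -2.54 (-2.67 to -2.41) in combo, and under trimmed mean (TMM) scaling they were -1.45 with anti-PD-1, -3.28 with anti-LIF and -2.75 in combo. The share of cancer cells with an Mmp19 UMI was 16.2% (anti-PD-1), 7.57% (anti-LIF), 10.7% (combo) and 26.2% (control), at median depths of 8631 (anti-PD-1), 5958 (anti-LIF), 11708 (combo) and 11079 (control) UMIs. With each cell thinned to 1000 UMIs it was 4.37% (anti-PD-1), 1.53% (anti-LIF), 1.72% (combo) and 7.79% (control). T and NK cells, thinned alike, had 1.48% (anti-PD-1), 1.39% (anti-LIF), 1.3% (combo) and 0.874% (control). These were near the cancer cell shares with anti-LIF and in combo only. Over all libraries T and NK cells had 15.6 CPM of Mmp19. The cancer cell clusters described below had 6.42 CPM (cluster 2), 2.89 CPM (cluster 14) and 249 CPM (cluster 4). The T and NK level is thus above that of some cancer cells, and the part of free RNA in the cancer cell shares was not tested. In combo, 10 cells held 40.1% of the Mmp19 UMIs of the class, against 8.4% in control. Among cells with at most 10% mitochondrial UMIs the combo ratio over control was -0.95, short of 2-fold, and combo was above anti-PD-1 with a log2 ratio of 0.71.

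Clusters drawn without the 45 genes divided the cancer cells, and Mmp19 RNA lay mostly in 1 of them. Over all libraries cluster 4, led by Enpp2, Mgp, Ereg and Dpt, had 249 CPM of Mmp19, against 6.42 CPM in cluster 2 (led by Acta2 and Ankrd1) and 2.89 CPM in cluster 14 (led by Prl2c2 and the keratins Krt18 and Krt8). Dpt is also one of the fibroblast markers, but Xist was at 1.77 CPM in cluster 4, 1.34 CPM in cluster 2 and 2.25 CPM in cluster 14, against 109 and 171 CPM in the fibroblast clusters 0 and 7. Of the 5003 cells of cluster 4, 3488 were control cells, 55.4% passed the cancer gate, 43.5% had too few markers for any gate and 0.7% passed the fibroblast gate. Cluster 4 took 20.5% (anti-PD-1), 7.03% (anti-LIF), 10.1% (combo) and 41.7% (control) of the gated cancer cells. Cluster 14 took 8.35% (anti-PD-1), 37.9% (anti-LIF), 28.7% (combo) and 2.27% (control). Within cluster 4 Mmp19 was at 217 CPM (anti-PD-1), 85.7 CPM (anti-LIF), 64.6 CPM (combo) and 282 CPM (control), log2 ratios of -0.38, -1.71 and -2.12 for anti-PD-1, anti-LIF and combo. Within cluster 2 it was at 7.42 CPM (anti-PD-1), 8.78 CPM (anti-LIF), 4.91 CPM (combo) and 5.87 CPM (control). The lower class level thus went with a smaller share of cluster 4 in each treated library and with a lower level inside that cluster, slightly so in anti-PD-1.

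**Figure D2:**
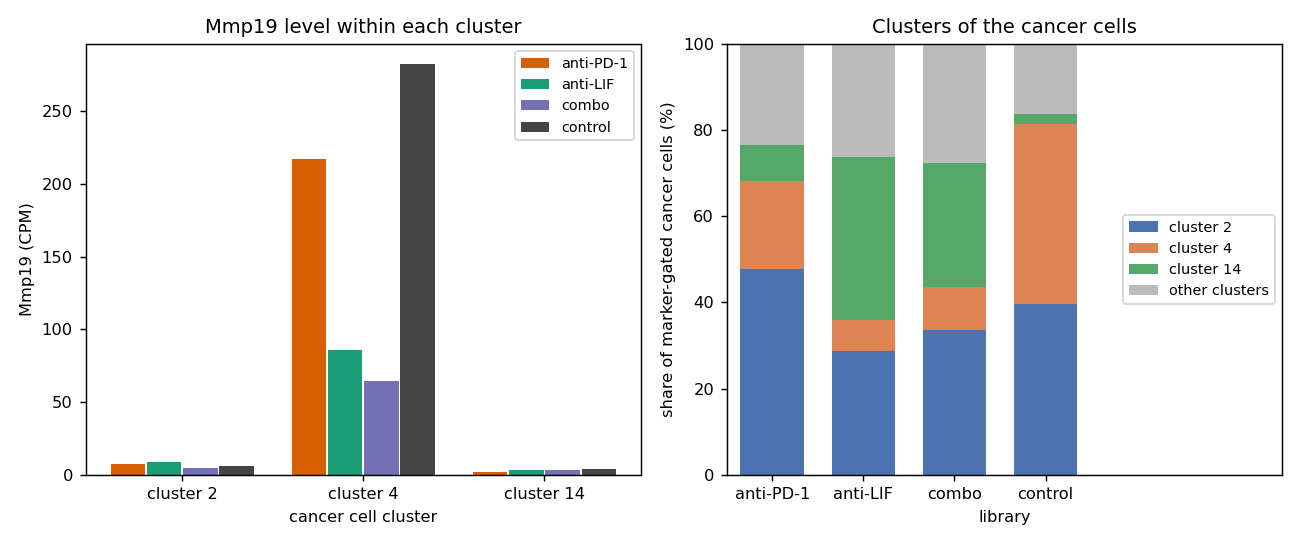
Left, Mmp19 level (CPM, UMIs of a cluster summed per library) in the 3 clusters named as cancer cells, 1 value per library with no replicates. Right, share of marker-gated cancer cells of each library in these clusters and in all others; cluster 4, which holds most Mmp19, takes 7.03% to 20.5% of cancer cells in the treated libraries and 41.7% in control.

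Adamts1, a versican-cutting enzyme with anti-angiogenic activity, was at 54.5 CPM (51.8 to 57.3) in anti-PD-1, 23.4 CPM (21.2 to 25.8) in anti-LIF, 28.4 CPM (26.4 to 30.5) in combo and 75.6 CPM (73.4 to 77.9) in control cancer cells. The libraries with anti-LIF were the lowest, and the log2 ratios over control were -0.47 (-0.56 to -0.39) with anti-PD-1, -1.69 (-1.84 to -1.54) with anti-LIF and -1.41 (-1.53 to -1.30) in combo. Adamts1 was lower inside cluster 2 too, at 66.2 CPM (anti-PD-1), 31.2 CPM (anti-LIF), 34.8 CPM (combo) and 75.3 CPM (control). In cluster 14 it was at 14.1 CPM (anti-PD-1), 13.4 CPM (anti-LIF), 14.1 CPM (combo) and 38.5 CPM (control), where each treated library was below control, and in cluster 4 at 90.6 CPM (anti-PD-1), 57.4 CPM (anti-LIF), 51 CPM (combo) and 81.6 CPM (control). Among cells with at most 10% mitochondrial UMIs the combo ratio was -0.99, just short of 2-fold.

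Mmp15, a membrane-type metalloprotease, was at 23.2 CPM (21.4 to 25) in anti-PD-1, 27.7 CPM (25.3 to 30.3) in anti-LIF, 35.9 CPM (33.7 to 38.3) in combo and 16.6 CPM (15.6 to 17.7) in control cancer cells. Each treated library was above control without overlap of intervals, and the combo log2 ratio of 1.11 (0.98 to 1.24) was the one past 2-fold. Under TMM scaling it was 0.90. Inside cluster 2 the level was 24.3 CPM (anti-PD-1), 34.1 CPM (anti-LIF), 38.6 CPM (combo) and 21 CPM (control), and inside cluster 4 14.2 CPM (anti-PD-1), 20.4 CPM (anti-LIF), 33.8 CPM (combo) and 10.7 CPM (control), with combo the highest in both. Mmp14 was nearly level, at 200 CPM (anti-PD-1), 196 CPM (anti-LIF), 218 CPM (combo) and 205 CPM (control).

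The inhibitors in cancer cells stayed within 2-fold of control. Timp2 was at 1100 CPM (anti-PD-1), 1150 CPM (anti-LIF), 1210 CPM (combo) and 927 CPM (control), and its log2 ratios of 0.24 with anti-PD-1, 0.31 with anti-LIF and 0.38 in combo lie near the shift of all genes. Timp1, an inhibitor that also acts as a growth factor, was at 84.4 CPM (anti-PD-1), 124 CPM (anti-LIF), 112 CPM (combo) and 98.9 CPM (control). Timp3, which binds to the matrix, was at 6.64 CPM (anti-PD-1), 18.6 CPM (anti-LIF), 13.8 CPM (combo) and 10.3 CPM (control), and combo over anti-PD-1 had a log2 ratio of 1.06 (0.80 to 1.32). T and NK cells had 13.9 CPM (anti-PD-1), 21.7 CPM (anti-LIF), 13.6 CPM (combo) and 9.17 CPM (control) of it. The cancer cell values lie below or near that level. Over all libraries Timp3 was at 11.4 CPM in T and NK cells. It was at 5.16 CPM in cluster 2, 6.27 CPM in cluster 14 and 13.7 CPM in cluster 4. The part of free RNA in the cancer cell values was not tested, so no order of the libraries is read from Timp3 there. Of the other genes named in cancer cells, Mmp11 was at 24 CPM (anti-PD-1), 19.3 CPM (anti-LIF), 19.3 CPM (combo) and 14.6 CPM (control), Adamts2 at 24.8 CPM (anti-PD-1), 14.5 CPM (anti-LIF), 12.7 CPM (combo) and 14.9 CPM (control) and Adamts14 at 9.76 CPM (anti-PD-1), 10.9 CPM (anti-LIF), 7.99 CPM (combo) and 5.51 CPM (control). Adamts6 had 11 to 18.9 CPM and Adamts4 16.6 to 23.4 CPM over the libraries. None of these passed 2-fold over control.

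In fibroblasts 36 of the 45 genes had enough UMIs. Timp1, Mmp13, Adamts9 and Adamts14 were higher in each treated library and past 2-fold in 1 or more, Adamts16 was past 2-fold lower in all 3, and Mmp2, Mmp14, Mmp23 and Adamts2 were close to level. For Adamts14 the control level lay below that of T and NK cells. Against control, 7 genes were higher and 6 lower in the anti-PD-1 library, where 4.81% and 4.81% of all 12507 genes were. With anti-LIF 7 were higher and 1 lower (4.36% and 4.21% of all genes), and in combo 3 were higher and 1 lower (3.75% and 4.05%). Combo over anti-PD-1 had 4 higher and 1 lower (3.34% and 2.8%), and combo over anti-LIF 0 higher and 2 lower (1.24% and 1.33%). The median log2 ratio over control of the 36 genes was -0.05 with anti-PD-1, 0.1 with anti-LIF and 0.08 in combo, beside 0.02, 0 and 0.03 for all genes.

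Timp1 was at 1060 CPM (1030 to 1090) in anti-PD-1, 756 CPM (741 to 770) in anti-LIF, 752 CPM (741 to 763) in combo and 396 CPM (380 to 412) in control fibroblasts. Each treated library was above control, anti-PD-1 was the highest, and the intervals of anti-LIF and combo overlap. The log2 ratios over control were 1.42 (1.35 to 1.49) with anti-PD-1, 0.93 (0.87 to 1.00) with anti-LIF and 0.93 (0.86 to 0.99) in combo, which is 2.67-fold in anti-PD-1, 1.91-fold with anti-LIF and 1.9-fold in combo. The share of fibroblasts with a Timp1 UMI was 52.5% (anti-PD-1), 52.5% (anti-LIF), 56.7% (combo) and 57.5% (control), at median depths of 2008 (anti-PD-1), 2044 (anti-LIF), 3707 (combo) and 3910 (control) UMIs. Thinned to 1000 UMIs it was 36.7% (anti-PD-1), 33.6% (anti-LIF), 32.2% (combo) and 27.6% (control), with 1.02% (anti-PD-1), 1.84% (anti-LIF), 1.7% (combo) and 0.786% (control) in T and NK cells. With every cell weighted alike the log2 ratios were 0.75 with anti-PD-1, 0.57 with anti-LIF and 0.47 in combo, none past 2-fold. Timp1 was above control inside both main fibroblast clusters, at 1180 CPM (anti-PD-1), 830 CPM (anti-LIF), 1080 CPM (combo) and 542 CPM (control) in cluster 0 and 530 CPM (anti-PD-1), 604 CPM (anti-LIF), 341 CPM (combo) and 245 CPM (control) in cluster 7.

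The other inhibitors of fibroblasts went the other way. Timp2 was at 1200 CPM (anti-PD-1), 1460 CPM (anti-LIF), 1600 CPM (combo) and 1880 CPM (control). Timp3, which also blocks ADAM17 and some ADAMTS enzymes, was at 1270 CPM (anti-PD-1), 1620 CPM (anti-LIF), 1070 CPM (combo) and 2020 CPM (control). Control was the highest library for both, and the Timp3 log2 ratios were -0.67 with anti-PD-1, -0.32 with anti-LIF and -0.92 in combo, short of 2-fold in each. The Timp3 difference lay in cluster 0, at 1440 CPM (anti-PD-1), 2060 CPM (anti-LIF), 1440 CPM (combo) and 3320 CPM (control), while in cluster 7 it was at 664 CPM (anti-PD-1), 882 CPM (anti-LIF), 582 CPM (combo) and 637 CPM (control). Timp3 lies across Syn3 on the other strand, which had 253 UMIs, and Timp1 across Syn1, which had 1242 UMIs.

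**Figure D3:**
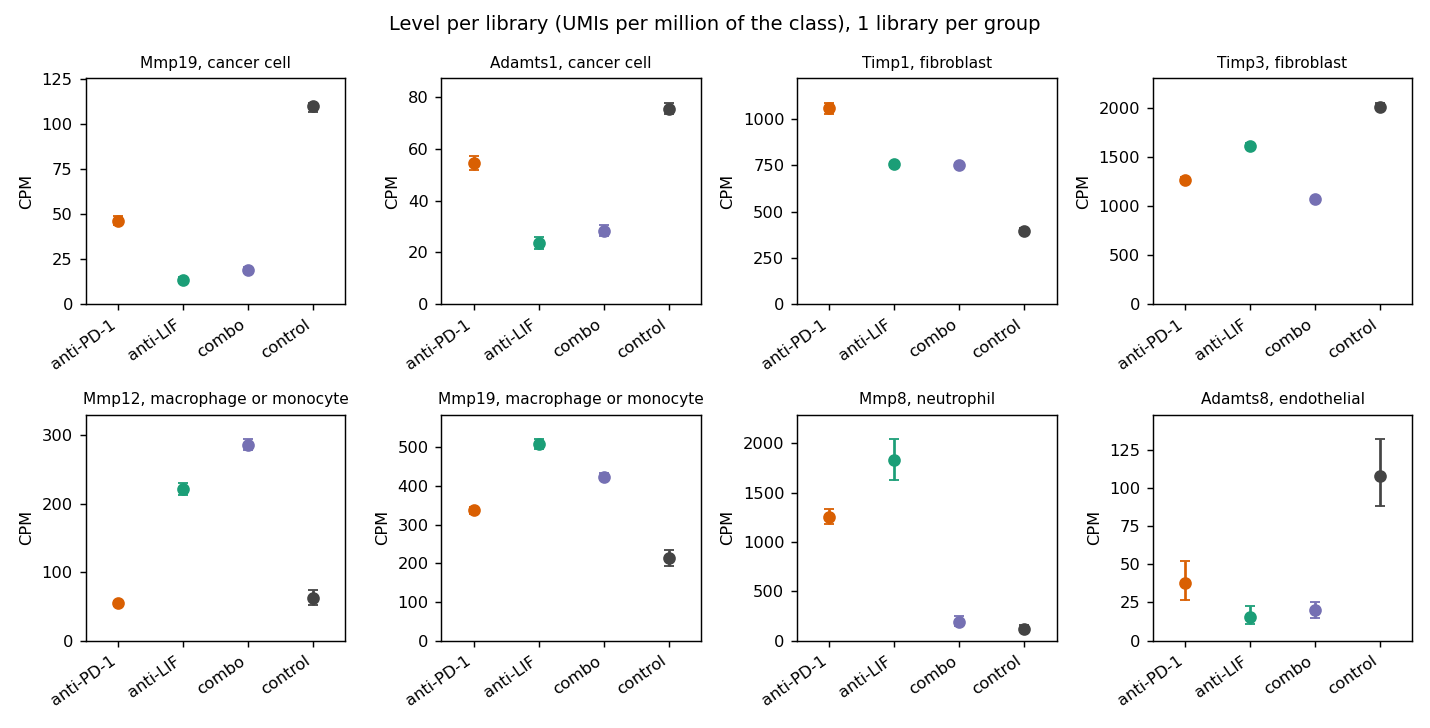
Level in CPM of 7 genes in 8 pairs of gene and class, in each of the 4 libraries, with exact 95% Poisson intervals for counting error only. Mmp19 and Adamts1 in cancer cells and Adamts8 in endothelial cells are highest in control, Timp1 in fibroblasts and Mmp19 in macrophages are lowest in control, Mmp12 is high with anti-LIF and in combo, and Mmp8 is high with either antibody alone.

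Among the collagenases and gelatinases, Mmp13 (collagenase-3) was at 42.2 CPM (37 to 47.8) in anti-PD-1, 22.2 CPM (19.8 to 24.9) in anti-LIF, 22.3 CPM (20.4 to 24.3) in combo and 13.8 CPM (11 to 17.1) in control fibroblasts. Each treated library was above control, and the log2 ratios were 1.61 (1.25 to 1.99) with anti-PD-1, 0.68 (0.33 to 1.06) with anti-LIF and 0.69 (0.35 to 1.05) in combo. Few fibroblasts carried it, 3.17% (anti-PD-1), 1.67% (anti-LIF), 1.66% (combo) and 1.97% (control), and 10 cells held 60.2% to 85.4% of its UMIs in a library. Mmp2 was at 693 CPM (anti-PD-1), 710 CPM (anti-LIF), 797 CPM (combo) and 886 CPM (control), highest in control. Mmp9 was at 25.4 CPM (anti-PD-1), 23.5 CPM (anti-LIF), 14.8 CPM (combo) and 14.8 CPM (control), while T and NK cells had 9.14 CPM (anti-PD-1), 27.4 CPM (anti-LIF), 19.1 CPM (combo) and 8.1 CPM (control). The anti-LIF and combo values lie below that background, so no order of the libraries is read from Mmp9 in fibroblasts. The 5 osteoclast markers summed to 12.8 CPM (anti-PD-1), 9.95 CPM (anti-LIF), 6.93 CPM (combo) and 5.54 CPM (control) in fibroblasts, and their part in the Mmp9 values was not tested.

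Of the stromelysins, Mmp3 was at 430 CPM (413 to 447) in anti-PD-1, 559 CPM (546 to 572) in anti-LIF, 729 CPM (718 to 740) in combo and 459 CPM (442 to 476) in control fibroblasts. Combo was the highest, with log2 ratios of 0.67 (0.61 to 0.73) over control, 0.76 (0.70 to 0.82) over anti-PD-1 and 0.38 (0.34 to 0.42) over anti-LIF. The share of fibroblasts with an Mmp3 UMI was 24.1% (anti-PD-1), 32.8% (anti-LIF), 45.4% (combo) and 34.8% (control), and 0.357% (anti-PD-1), 0.61% (anti-LIF), 1.38% (combo) and 0.522% (control) in T and NK cells. Inside cluster 7 each treated library was above control, at 1200 CPM (anti-PD-1), 1050 CPM (anti-LIF), 1140 CPM (combo) and 707 CPM (control). Cluster 7 took 23.4% (anti-PD-1), 32.9% (anti-LIF), 45.7% (combo) and 51.2% (control) of fibroblasts, most in control. Mmp11 (stromelysin-3) was at 143 CPM (anti-PD-1), 168 CPM (anti-LIF), 171 CPM (combo) and 121 CPM (control). It lies across Chchd10 on the other strand, and the counting strand was not given in the sources used here.

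Mmp27, a relative of the stromelysins, was at 3.15 CPM (anti-PD-1), 8.47 CPM (anti-LIF), 16.6 CPM (combo) and 6.55 CPM (control) in fibroblasts. It was past 2-fold lower in anti-PD-1 and past 2-fold higher in combo, with log2 ratios of -1.04 (-1.95 to -0.22) with anti-PD-1, 0.36 (-0.17 to 0.93) with anti-LIF and 1.32 (0.86 to 1.85) in combo, the first from 18 UMIs. Of the membrane-type and other enzymes, Mmp14 was at 657 CPM (anti-PD-1), 678 CPM (anti-LIF), 711 CPM (combo) and 719 CPM (control), Mmp23 at 171 CPM (anti-PD-1), 163 CPM (anti-LIF), 173 CPM (combo) and 172 CPM (control) and Mmp19 at 309 CPM (anti-PD-1), 244 CPM (anti-LIF), 241 CPM (combo) and 243 CPM (control). These 3 were close to level, and the log2 ratio farthest from 0 was 0.34, for Mmp19 in anti-PD-1.

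Of the proteoglycan-cutting ADAMTS genes, Adamts9 was at 34.6 CPM (anti-PD-1), 38.7 CPM (anti-LIF), 29.2 CPM (combo) and 15.1 CPM (control) in fibroblasts. Every treated library was above control, with log2 ratios of 1.19 (0.83 to 1.57) with anti-PD-1, 1.35 (1.03 to 1.70) with anti-LIF and 0.94 (0.63 to 1.29) in combo, the last short of 2-fold. Adamts8 was at 4.55 CPM (anti-PD-1), 17 CPM (anti-LIF), 6.27 CPM (combo) and 5.54 CPM (control), high with anti-LIF alone at a log2 ratio of 1.60 (1.09 to 2.19). Adamts4 was at 31.7 CPM (anti-PD-1), 40.9 CPM (anti-LIF), 58.2 CPM (combo) and 29.1 CPM (control), highest in combo and there just short of 2-fold over control. The level of Adamts4 is uncertain, since the counting strand was not given in the sources used here. Adamts5 was at 192 CPM (anti-PD-1), 195 CPM (anti-LIF), 273 CPM (combo) and 272 CPM (control), Adamts1 at 226 CPM (anti-PD-1), 261 CPM (anti-LIF), 283 CPM (combo) and 252 CPM (control) and Adamts15 at 20.6 CPM (anti-PD-1), 18.7 CPM (anti-LIF), 20.2 CPM (combo) and 26.5 CPM (control), each within 2-fold of control.

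The procollagen-trimming genes differed from each other. Adamts14 was at 20.3 CPM (anti-PD-1), 12.8 CPM (anti-LIF), 11.4 CPM (combo) and 5.88 CPM (control) in fibroblasts, above control in each treated library, with log2 ratios of 1.77 (1.23 to 2.38) with anti-PD-1, 1.10 (0.59 to 1.69) with anti-LIF and 0.93 (0.44 to 1.5) in combo. T and NK cells had 14.6 CPM (anti-PD-1), 5.71 CPM (anti-LIF), 8.44 CPM (combo) and 7.02 CPM (control) of Adamts14. The control fibroblast value thus lies below the T and NK level. The macrophage clusters had 0.193 to 1.97 CPM of Adamts14 over all libraries, so the T and NK level need not be background. Its source was not tested, and the size of these ratios is uncertain. Adamts2 was at 665 CPM (anti-PD-1), 841 CPM (anti-LIF), 782 CPM (combo) and 773 CPM (control), with log2 ratios of -0.22 with anti-PD-1, 0.12 with anti-LIF and 0.02 in combo. Combo was short of 2-fold for both.

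Among the remaining ADAMTS genes, Adamts16 was at 7.17 CPM (5.15 to 9.73) in anti-PD-1, 4.53 CPM (3.47 to 5.82) in anti-LIF, 6.27 CPM (5.28 to 7.39) in combo and 18.7 CPM (15.3 to 22.5) in control fibroblasts. Control stood apart, with log2 ratios over it of -1.37 (-1.93 to -0.85) with anti-PD-1, -2.04 (-2.52 to -1.58) with anti-LIF and -1.57 (-1.94 to -1.20) in combo. It was lower than control in both clusters, at 8.43 CPM (anti-PD-1), 5.81 CPM (anti-LIF), 10 CPM (combo) and 26 CPM (control) in cluster 0 and 0.673 CPM (anti-PD-1), 2.15 CPM (anti-LIF), 2.32 CPM (combo) and 8.85 CPM (control) in cluster 7. With every cell weighted alike the ratio was -0.25 with anti-PD-1, -1.80 with anti-LIF and -0.67 in combo, so that only anti-LIF was then past 2-fold. Adamts19 was at 15 CPM (anti-PD-1), 6.76 CPM (anti-LIF), 4.56 CPM (combo) and 6.38 CPM (control), past 2-fold higher in anti-PD-1 with a log2 ratio of 1.23 (0.67 to 1.83). Adamts12 was at 118 CPM (anti-PD-1), 127 CPM (anti-LIF), 124 CPM (combo) and 106 CPM (control), Adamts6 at 22 CPM (anti-PD-1), 17.4 CPM (anti-LIF), 11.4 CPM (combo) and 18.3 CPM (control) and Adamts10 at 8.57 CPM (anti-PD-1), 11.8 CPM (anti-LIF), 9.86 CPM (combo) and 6.72 CPM (control), each within 2-fold of control.

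The 2 main fibroblast clusters, drawn without these genes, carried different sets of them. Cluster 0 was led by Postn, Col1a2 and Thbs4, and cluster 7 by Serpina3n, Tnfaip6 and Ptx3. Mmp11 was at 222 CPM in cluster 0 and 62.7 CPM in cluster 7, Mmp13 at 39.5 and 0.486 CPM, Adamts9 at 43.1 and 12.6 CPM, and Timp3 at 1820 and 671 CPM. The collagenase-3, stromelysin-3 and Timp3 genes thus went with cluster 0. In the other direction, Mmp3 was at 226 CPM in cluster 0 and 1050 CPM in cluster 7, Adamts5 at 67.4 and 444 CPM, Adamts1 at 147 and 396 CPM, and Mmp27 at 3.94 and 19.9 CPM. Mmp2, Mmp19 and Mmp23 were close to level between the clusters. Clusters come from the other genes of the same cells, so these values describe them and are no test. Cluster 0 took 73.7% (anti-PD-1), 66.2% (anti-LIF), 52.2% (combo) and 45.8% (control) of fibroblasts.

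**Figure D4:**
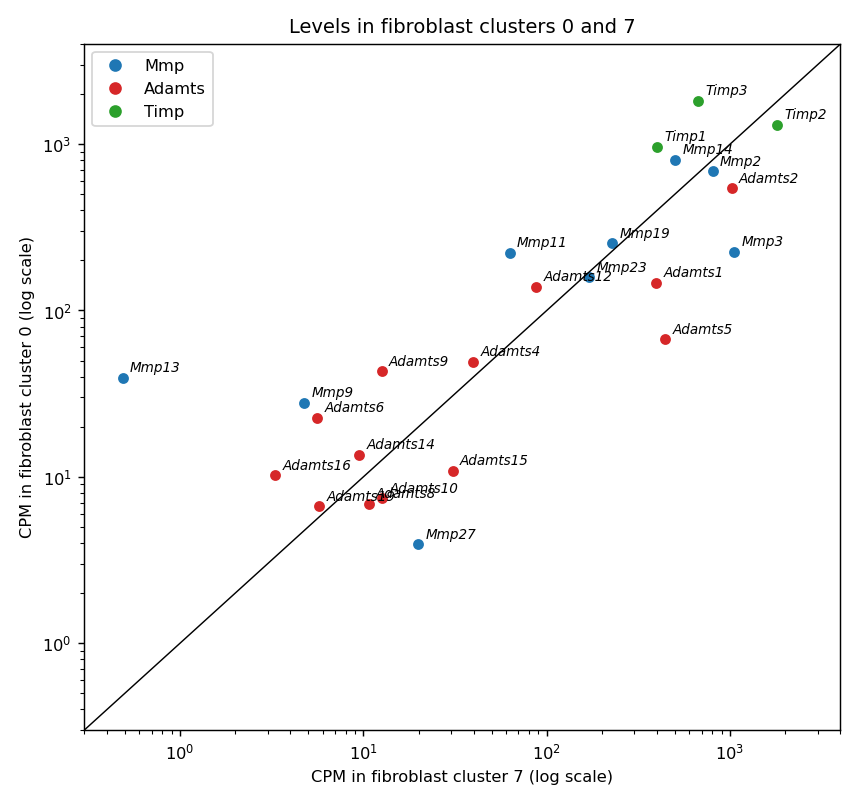
Level in CPM (both axes on a log scale, 4 libraries summed) of the genes described in fibroblasts, in cluster 0 and in cluster 7; the line marks equal levels. Mmp13, Mmp11 and Timp3 are higher in cluster 0, and Mmp3, Adamts5 and Mmp27 in cluster 7.

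In macrophages and monocytes 23 of the 45 genes had enough UMIs. Mmp12 was higher with anti-LIF and in combo, Mmp19 was higher in each treated library, and Mmp13 was lower in each. Against control, 2 genes were higher and 11 lower in the anti-PD-1 library, where 6.64% and 6.18% of all 11715 genes were. With anti-LIF 5 were higher and 10 lower (9.08% and 8.37% of all genes), and in combo 2 were higher and 9 lower (8.37% and 8.34%). Combo over anti-PD-1 had 4 higher and 0 lower (3.43% and 3.18%), and combo over anti-LIF 1 higher and 0 lower (0.837% and 1.24%). The median log2 ratio over control of the 23 genes was -0.51 with anti-PD-1, -0.76 with anti-LIF and -0.62 in combo, beside 0.11, 0.09 and 0.08 for all genes. Of the genes lower than control, Adamts4, Mmp23, Mmp15, Mmp11, Adamts2, Adamts6 and Adamts5 stayed under 10 CPM in each library. So did Adamts10 among the higher ones. The counts and medians thus rest in part on genes of low level, read against 572 control cells.

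The values of Mmp2 and Mmp3 in control macrophages rest on few of the 572 cells. Mmp2 was at 9.87 CPM (anti-PD-1), 7.31 CPM (anti-LIF), 11 CPM (combo) and 25.3 CPM (control), and 10 cells held 83.3% of its control UMIs. Mmp3 was at 2.05 CPM (anti-PD-1), 3.25 CPM (anti-LIF), 6.49 CPM (combo) and 14.5 CPM (control), the control value from 31 UMIs in 6 cells. Adamts1 was at 5.16 CPM (anti-PD-1), 4.14 CPM (anti-LIF), 4.73 CPM (combo) and 13.6 CPM (control), the control value from 29 UMIs in 19 cells. T and NK cells had 2.19 CPM (anti-PD-1), 4.57 CPM (anti-LIF), 7.34 CPM (combo) and 4.37 CPM (control) of Mmp3 and 5.12 CPM (anti-PD-1), 3.42 CPM (anti-LIF), 6.6 CPM (combo) and 4.87 CPM (control) of Adamts1, so the treated macrophages were at or near background for both. All 3 genes were highest in control. Without the 10 cells with most UMIs of the gene in each library, the ratios of Mmp2 and Mmp3 changed sign in every treated library. This step leaves control without any Mmp3 UMI and takes 83.3% of its Mmp2 UMIs. The new signs therefore follow from the step and show only that the control values rest on few cells. The 10 fibroblast markers, all with UMIs in each library, summed to 667 CPM (anti-PD-1), 913 CPM (anti-LIF), 1010 CPM (combo) and 1710 CPM (control) in macrophages, and their part in these ratios was not tested.

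Mmp12, the macrophage elastase, was at 54.3 CPM (50.4 to 58.4) in anti-PD-1, 222 CPM (213 to 230) in anti-LIF, 286 CPM (279 to 294) in combo and 62.4 CPM (52.2 to 73.9) in control macrophages. The libraries with anti-LIF were several-fold above the other pair, whose intervals overlap. The log2 ratios over control were -0.20 (-0.47 to 0.08) with anti-PD-1, 1.82 (1.58 to 2.09) with anti-LIF and 2.19 (1.95 to 2.46) in combo, and combo over anti-PD-1 was 2.40 (2.29 to 2.51). The share of macrophages with an Mmp12 UMI was 3.09% (anti-PD-1), 9.28% (anti-LIF), 11% (combo) and 4.02% (control), and thinned to 1000 UMIs it was 2.06% (anti-PD-1), 6.5% (anti-LIF), 6.81% (combo) and 2.53% (control). T and NK cells, thinned alike, had 0% (anti-PD-1), 0.958% (anti-LIF), 0.382% (combo) and 0.028% (control). The control level rests on 23 cells, 10 of which held 88.7% of its UMIs, and without the 10 highest cells of each library the anti-PD-1 ratio was 1.91, the anti-LIF ratio 4.42 and the combo ratio 4.74.

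Among the 5 macrophage clusters, Mmp12 was high in 2. Cluster 6, led by Arg1 and Chil3, had 923 CPM over all libraries and cluster 16, led by Retnla and Ear2, 420 CPM, against 17.9 to 34.1 CPM in clusters 5, 9 and 15. Inside cluster 6 it was at 228 CPM (anti-PD-1), 1150 CPM (anti-LIF), 1200 CPM (combo) and 360 CPM (control), so that the libraries with anti-LIF were the high ones there too, and control had 134 cells. Inside cluster 16 it was at 158 CPM (anti-PD-1), 513 CPM (anti-LIF), 389 CPM (combo) and 181 CPM (control), the last from 11 cells. Mmp12 was also high in cells that passed the osteoclast gate with anti-LIF, at 4170 CPM in 17 of 40 cells, and in combo, at 2070 CPM in 5 of 28 cells, with 0 UMIs in the 110 anti-PD-1 and 16 control cells of that gate. The osteoclast cluster, number 26, had 53.8 CPM, so the gated cells with Mmp12 lie mostly outside it and their identity is uncertain. With class taken from the cluster, macrophages and not osteoclasts had the highest Mmp12. The highest class also differed for Mmp13, osteoclasts by gate and endothelial cells by cluster, and for Mmp15, endothelial cells by gate and gland epithelium by cluster, and was the same for the other genes of the heat map.

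Mmp19 was at 337 CPM (327 to 347) in anti-PD-1, 508 CPM (495 to 521) in anti-LIF, 424 CPM (415 to 434) in combo and 213 CPM (194 to 234) in control macrophages. Here control was the lowest library, where in cancer cells it was the highest. The log2 ratios were 0.66 (0.52 to 0.80) with anti-PD-1, 1.25 (1.11 to 1.39) with anti-LIF and 0.99 (0.86 to 1.13) in combo, and anti-LIF was past 2-fold. Inside cluster 6 it was at 1050 CPM (anti-PD-1), 969 CPM (anti-LIF), 873 CPM (combo) and 643 CPM (control), and inside cluster 9, led by Ccl12 and C1qc, it was at 134 CPM (anti-PD-1), 174 CPM (anti-LIF), 167 CPM (combo) and 94.2 CPM (control). In cluster 16 the libraries were closer, at 935 CPM (anti-PD-1), 827 CPM (anti-LIF), 701 CPM (combo) and 775 CPM (control), with log2 ratios of 0.26 with anti-PD-1, 0.08 with anti-LIF and -0.16 in combo from 11 control cells. Cluster 6 took 20.5% (anti-PD-1), 29% (anti-LIF), 24.6% (combo) and 15.9% (control) of macrophages, and cluster 16 took 2.1% (anti-PD-1), 12.9% (anti-LIF), 13% (combo) and 1.22% (control). Mmp19 lies across Tmem198b on the other strand, which had 7043 UMIs against 51679 of Mmp19.

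Mmp9 was at 16.7 CPM (anti-PD-1), 15.8 CPM (anti-LIF), 32.7 CPM (combo) and 4.69 CPM (control) in macrophages, the last from 10 UMIs. The log2 ratios were 1.77 (0.93 to 2.91) with anti-PD-1, 1.68 (0.84 to 2.83) with anti-LIF and 2.73 (1.92 to 3.87) in combo. The anti-LIF and control values, however, lie below the Mmp9 level of T and NK cells given above. Thinned to 1000 UMIs, the share of cells with an Mmp9 UMI was 1.16% (anti-PD-1), 1.2% (anti-LIF), 1.64% (combo) and 0.406% (control) in macrophages and 1.03% (anti-PD-1), 1.91% (anti-LIF), 1.45% (combo) and 0.628% (control) in T and NK cells, so these shares are at or near background and no difference is read from them. The 5 osteoclast markers summed to 64.1 CPM (anti-PD-1), 116 CPM (anti-LIF), 137 CPM (combo) and 54.9 CPM (control) in macrophages, and their part was not tested. Mmp13 was at 11.5 CPM (anti-PD-1), 10.9 CPM (anti-LIF), 10.9 CPM (combo) and 30.9 CPM (control), lower in each treated library with log2 ratios of -1.43 with anti-PD-1, -1.51 with anti-LIF and -1.51 in combo, and 10 cells held 69.7% of the 66 control UMIs. It was below control inside cluster 6 too, at 11.2 CPM (anti-PD-1), 19.4 CPM (anti-LIF), 32.9 CPM (combo) and 47.8 CPM (control). Inside cluster 9 it was at 16 CPM (anti-PD-1), 14.5 CPM (anti-LIF), 15.1 CPM (combo) and 29.4 CPM (control). Mmp14 was at 182 CPM (anti-PD-1), 109 CPM (anti-LIF), 111 CPM (combo) and 187 CPM (control), so that the libraries with anti-LIF were the low pair, with log2 ratios of -0.04 with anti-PD-1, -0.78 with anti-LIF and -0.76 in combo. Mmp25, a membrane-type enzyme of leukocytes, was at 15.6 CPM (anti-PD-1), 10.3 CPM (anti-LIF), 11.3 CPM (combo) and 22 CPM (control), and Mmp8 at 10.8 CPM (anti-PD-1), 5.85 CPM (anti-LIF), 6.54 CPM (combo) and 5.63 CPM (control). Of the inhibitors, Timp2 was at 654 CPM (anti-PD-1), 670 CPM (anti-LIF), 856 CPM (combo) and 562 CPM (control), and by cluster it was highest in cluster 15, led by Ccl8 and Lyve1, at 1480 CPM. Timp1 was at 34.8 CPM (anti-PD-1), 47.7 CPM (anti-LIF), 47.9 CPM (combo) and 39.4 CPM (control) in the class. Inside each of the 5 macrophage clusters every treated library was above control, but the control values rest on few Timp1 UMIs. In cluster 6 Timp1 was at 72.4 CPM (anti-PD-1), 70 CPM (anti-LIF), 85 CPM (combo) and 9.55 CPM (control), the last from 3 UMIs. Control had 7 Timp1 UMIs in cluster 5 and 10 in cluster 9, or 15.6 and 12.2 CPM. It had 0 in clusters 15 and 16, which held 16 and 11 control cells. Control T and NK cells had 11 CPM of Timp1, so the control values of clusters 5, 6 and 9 lie near background. Timp3 was at 8.73 CPM (anti-PD-1), 15.9 CPM (anti-LIF), 11.6 CPM (combo) and 6.56 CPM (control) in macrophages, below its level in T and NK cells of 13.9 CPM (anti-PD-1), 21.7 CPM (anti-LIF), 13.6 CPM (combo) and 9.17 CPM (control), and is read as background.

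**Figure D5:**
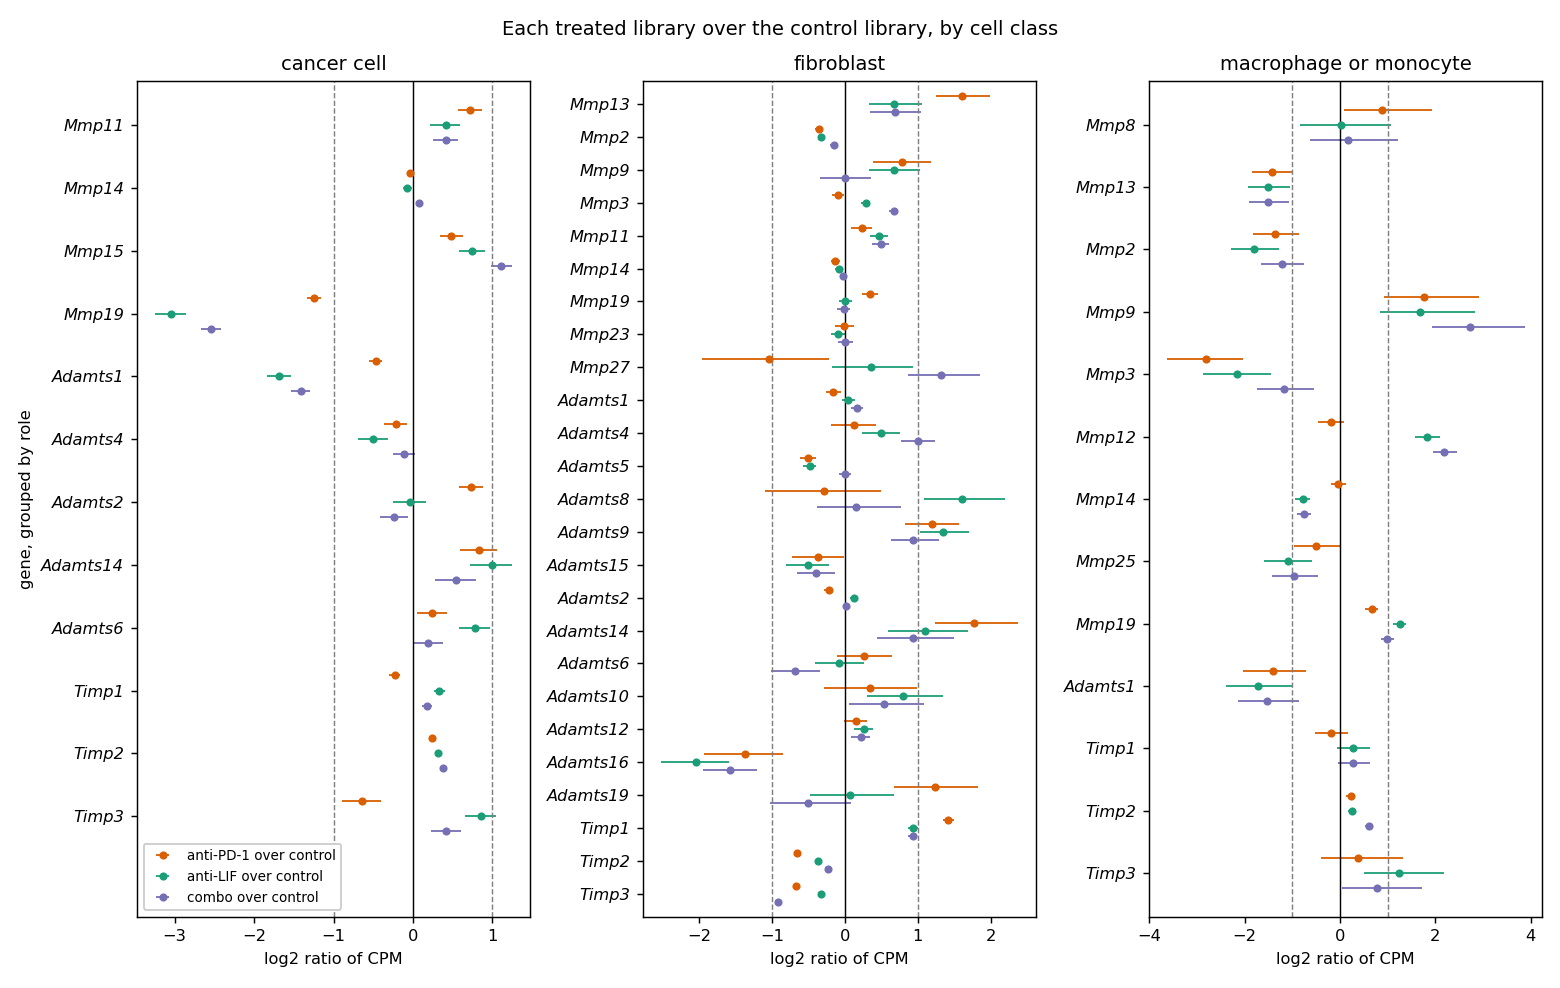
Log2 ratio of CPM over the control library (horizontal axis) of each described gene in cancer cells, fibroblasts and macrophages or monocytes, with exact 95% intervals for counting error only; dashed lines mark 2-fold. Mmp19 lies left of 0 in cancer cells and right of 0 in macrophages, Timp1 right and Adamts16 left of 0 in fibroblasts for each treated library, and Mmp12 in macrophages is past 2-fold for anti-LIF and combo.

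In endothelial cells, 362 anti-PD-1, 853 anti-LIF, 997 combo and 228 control cells, 19 of the 45 genes had enough UMIs. Past 2-fold over control were 5 higher and 1 lower in the anti-PD-1 library (7.44% and 3.62% of all 8953 genes), 6 higher and 1 lower with anti-LIF (7.33% and 3.41%) and 6 higher and 2 lower in combo (6.43% and 3.19%). Adamts8, an anti-angiogenic relative of Adamts1, was at 37.8 CPM (26.6 to 52.1) in anti-PD-1, 15.7 CPM (10.6 to 22.4) in anti-LIF, 19.9 CPM (15.1 to 25.6) in combo and 108 CPM (88.2 to 132) in control endothelial cells. It was below control in each treated library, with log2 ratios of -1.51 (-2.10 to -0.96) with anti-PD-1, -2.77 (-3.43 to -2.18) with anti-LIF and -2.44 (-2.94 to -1.97) in combo, from 100 control UMIs in 29 cells. Timp4 had 7 UMIs in anti-PD-1, 25 in anti-LIF, 199 in combo and 0 in control endothelial cells, or 7.16 CPM (anti-PD-1), 13.1 CPM (anti-LIF), 67.1 CPM (combo) and 0 CPM (control). With the control taken at 3 UMIs, Timp4 was at least 4.03-fold higher with anti-LIF and at least 20.6-fold higher in combo. The interval of anti-PD-1 (2.88 to 14.7 CPM) overlaps that of control (0 to 4 CPM), while those of anti-LIF (8.48 to 19.3 CPM) and combo (58.1 to 77 CPM) do not. Timp4 was in 124 combo cells, and the shares of cells were 1.66% (anti-PD-1), 2.23% (anti-LIF), 12.4% (combo) and 0% (control). These 3 marker lists were highest in the combo endothelial cells. The 7 markers of pericytes or smooth muscle summed to 200 CPM (anti-PD-1), 250 CPM (anti-LIF), 528 CPM (combo) and 257 CPM (control) in them, the 8 of gland epithelium to 5.11 CPM (anti-PD-1), 23.1 CPM (anti-LIF), 337 CPM (combo) and 2.17 CPM (control), and the 10 of fibroblasts to 1020 CPM (anti-PD-1), 1460 CPM (anti-LIF), 2000 CPM (combo) and 670 CPM (control). Their part in the endothelial values was not tested.

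Of the other genes named in endothelial cells from their level, Adamts1, Timp3, Adamts9, Adamts4 and Mmp15 stayed within 2-fold of control. Adamts1 was at 669 CPM (anti-PD-1), 861 CPM (anti-LIF), 873 CPM (combo) and 634 CPM (control), and Timp3 at 888 CPM (anti-PD-1), 901 CPM (anti-LIF), 1010 CPM (combo) and 1380 CPM (control), highest in control. Adamts9 was at 278 CPM (anti-PD-1), 259 CPM (anti-LIF), 208 CPM (combo) and 227 CPM (control), Adamts4 at 131 CPM (anti-PD-1), 115 CPM (anti-LIF), 147 CPM (combo) and 153 CPM (control) and Mmp15 at 87.9 CPM (anti-PD-1), 103 CPM (anti-LIF), 82.6 CPM (combo) and 94.3 CPM (control). Mmp19 was at 38.8 CPM (anti-PD-1), 32 CPM (anti-LIF), 21.2 CPM (combo) and 4.34 CPM (control), past 2-fold higher in each treated library against 4 control UMIs. T and NK cells had 15.7 CPM (anti-PD-1), 29.1 CPM (anti-LIF), 18 CPM (combo) and 13.4 CPM (control) of it, so the control value lies below that background and the anti-LIF and combo values lie near it. The 10 macrophage markers summed to 578 CPM (anti-PD-1), 250 CPM (anti-LIF), 236 CPM (combo) and 69.4 CPM (control) in endothelial cells, 8 of them with a UMI in control, and their part in the Mmp19 values was not tested. The 56.2 CPM of Mmp13 in anti-PD-1 endothelial cells came from 1 cell. Genes of fibroblasts were among the others past 2-fold. Mmp2 was at 16.4 CPM (anti-PD-1), 8.91 CPM (anti-LIF), 13.5 CPM (combo) and 6.5 CPM (control) in endothelial cells, past 2-fold in anti-PD-1, and Adamts2 at 10.2 CPM (anti-PD-1), 18.9 CPM (anti-LIF), 24.3 CPM (combo) and 6.5 CPM (control), past 2-fold with anti-LIF and in combo. Mmp11 and Mmp12 were past 2-fold higher in combo, Mmp12 also with anti-LIF and Adamts7 in each treated library. Adamts5 was at 19.4 CPM (anti-PD-1), 15.2 CPM (anti-LIF), 14.2 CPM (combo) and 29.3 CPM (control), past 2-fold lower in combo.

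In neutrophils, 568 anti-PD-1, 172 anti-LIF, 273 combo and 398 control cells, 5 of the 45 genes had enough UMIs. Past 2-fold over control were 3 higher and 0 lower in the anti-PD-1 library (11.6% and 10% of all 3692 genes), 3 higher and 0 lower with anti-LIF (10.8% and 10.7%) and 1 higher and 0 lower in combo (10.2% and 5.72%). Mmp8 was at 1250 CPM (1180 to 1330) in anti-PD-1, 1830 CPM (1630 to 2040) in anti-LIF, 192 CPM (147 to 248) in combo and 122 CPM (89.8 to 163) in control neutrophils. Both libraries of 1 antibody were far above combo and control, with log2 ratios over control of 3.34 (2.94 to 3.81) with anti-PD-1, 3.89 (3.46 to 4.38) with anti-LIF and 0.65 (0.08 to 1.24) in combo, and combo over anti-LIF was -3.24 (-3.67 to -2.85). The share of neutrophils with an Mmp8 UMI was 29.4% (anti-PD-1), 31.4% (anti-LIF), 11.7% (combo) and 10.1% (control), against 0.0595% (anti-PD-1), 0.0872% (anti-LIF), 0.0691% (combo) and 0.0746% (control) in T and NK cells. Cluster 27, led by Ngp, Ltf and Camp, genes of neutrophil granules, had 1410 CPM of Mmp8 against 122 CPM in cluster 13, and it took 25.5% of anti-PD-1, 20.9% of anti-LIF, 4.03% of combo and no control neutrophils. Inside cluster 13 Mmp8 was at 278 CPM (anti-PD-1), 295 CPM (anti-LIF), 105 CPM (combo) and 32.4 CPM (control). The 6 neutrophil markers summed to 164000 CPM (anti-PD-1), 113000 CPM (anti-LIF), 76100 CPM (combo) and 51100 CPM (control) in the class, and their part in the Mmp8 values was not tested. Mmp9 was at 1570 CPM (anti-PD-1), 2010 CPM (anti-LIF), 1330 CPM (combo) and 1270 CPM (control) in gated neutrophils, within 2-fold. Inside cluster 13, gated or not, it was at 1240 CPM (anti-PD-1), 1260 CPM (anti-LIF), 1080 CPM (combo) and 415 CPM (control), with log2 ratios of 1.58 with anti-PD-1, 1.60 with anti-LIF and 1.38 in combo, past 2-fold in each. Of the 725 control cells of that cluster, 398 passed the neutrophil gate and 68 the cancer cell gate. The treated libraries had 16 (anti-PD-1), 4 (anti-LIF) and 6 (combo) gated cancer cells there. Control cancer cells had a median of 11079 UMIs and control neutrophils 820.5. The control levels of Mmp8 and Mmp9 inside cluster 13 thus count RNA of other cells too, and its part in these ratios was not tested. Mmp25 was at 153 CPM (anti-PD-1), 280 CPM (anti-LIF), 96.2 CPM (combo) and 70.2 CPM (control). Mmp19 was at 55.1 CPM (anti-PD-1), 51.5 CPM (anti-LIF), 48.1 CPM (combo) and 13 CPM (control), past 2-fold in each against 5 control UMIs, while the 10 macrophage markers summed to 1960 CPM (anti-PD-1), 1170 CPM (anti-LIF), 1990 CPM (combo) and 426 CPM (control) in neutrophils and their part was not tested.

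In T and NK cells 16 of the 45 genes had enough UMIs, and past 2-fold over control were 2 higher and 1 lower in the anti-PD-1 library (5.05% and 2.74% of all 10674 genes), 6 higher and 0 lower with anti-LIF (7.78% and 5.2%) and 4 higher and 0 lower in combo (6.76% and 4.04%). Adamts6 was at 17.5 CPM (anti-PD-1), 10.3 CPM (anti-LIF), 13.9 CPM (combo) and 19.6 CPM (control) there. Dendritic cells had the highest Mmp25, at 392 CPM (anti-PD-1), 442 CPM (anti-LIF), 483 CPM (combo) and 256 CPM (control). Mast cells or basophils carried Adamts5 at 138 CPM (anti-PD-1), 160 CPM (anti-LIF), 166 CPM (combo) and 126 CPM (control). Gland epithelium, 39 anti-PD-1, 129 anti-LIF, 563 combo and 59 control cells, carried Mmp15 at 90 CPM (anti-PD-1), 119 CPM (anti-LIF), 41 CPM (combo) and 143 CPM (control). Cluster 18, named as gland epithelium and led by Wfdc18 and Csn3, held 83 anti-PD-1, 184 anti-LIF, 215 combo and 146 control cells. Cluster 29, named alike but led by Bpifa2 and Smr3a, was made of 158 combo cells and no others. The combo library thus had a gland cluster that the others lacked, and its part in the combo value of Mmp15 was not tested. The 59.2 CPM of Mmp12 in control B or plasma cells came from 1 cell.

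A list of 29 genes that act with these proteases (plasminogen activators, ADAM proteases, cathepsins and other inhibitors) was read in the same way. In cancer cells 23 were measured, of which 4 were past 2-fold higher and 0 lower in anti-PD-1, 5 and 2 with anti-LIF, and 5 and 1 in combo, with medians of 0.29, 0.30 and -0.10. Of all genes measured in cancer cells, 5.96% were higher and 3.3% lower in anti-PD-1, 10.6% and 6.32% with anti-LIF, and 7.93% and 5.55% in combo. Ctss, a cathepsin of phagocytes, was at 93.8 CPM (anti-PD-1), 58.9 CPM (anti-LIF), 67.7 CPM (combo) and 23.6 CPM (control), while the 10 macrophage markers summed to 192 CPM (anti-PD-1), 175 CPM (anti-LIF), 188 CPM (combo) and 48.7 CPM (control) there and their part was not tested. In fibroblasts 28 were measured, and 1 was higher and 1 lower in each treated library, with medians of 0.05 to 0.06, where 4.81% of all genes were higher and 4.81% lower in anti-PD-1, 4.36% and 4.21% with anti-LIF, and 3.75% and 4.05% in combo. A2m, a broad protease inhibitor, was at 39.4 CPM (anti-PD-1), 17.7 CPM (anti-LIF), 11.8 CPM (combo) and 50.6 CPM (control) in fibroblasts. In macrophages 22 were measured, with 2 higher and 2 lower in anti-PD-1, 5 and 1 with anti-LIF, and 6 and 1 in combo, and medians of 0.36 with anti-PD-1, 0.48 with anti-LIF and 0.26 in combo. Of all genes measured in macrophages, 6.64% were higher and 6.18% lower in anti-PD-1, 9.08% and 8.37% with anti-LIF, and 8.37% and 8.34% in combo. Lrp1, a receptor that clears proteases with their inhibitors, was at 325 CPM (anti-PD-1), 353 CPM (anti-LIF), 326 CPM (combo) and 141 CPM (control), higher in each treated library.

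Of 15 matrix proteins that these enzymes can cut, 11 were measured in cancer cells, of which 0 were past 2-fold higher and 0 lower in anti-PD-1, 3 and 1 with anti-LIF, and 5 and 0 in combo, to be read against the same shares of all genes in cancer cells. Those higher in combo were Eln, Fbn1, Vwf, Col3a1 and Nid1. Col3a1 is also one of the fibroblast markers. Fibroblasts were 20.2% of kept cells in combo and 5.73% in control, and endothelial cells 6.08% and 1.22%. The part of RNA from these cells in the 5 ratios was not tested. In fibroblasts 12 were measured, with 1 higher and 0 lower in anti-PD-1, 1 and 1 with anti-LIF, and 1 and 0 in combo. The shares of all genes in fibroblasts were 4.81% higher and 4.81% lower in anti-PD-1, 4.36% and 4.21% with anti-LIF, and 3.75% and 4.05% in combo. In macrophages 11 were measured, with 2 higher and 3 lower in anti-PD-1 and 2 higher and 1 lower with anti-LIF and in combo, and the medians were -0.87 with anti-PD-1, -0.08 with anti-LIF and 0.17 in combo. The shares of all genes in macrophages were 6.64% higher and 6.18% lower in anti-PD-1, 9.08% and 8.37% with anti-LIF, and 8.37% and 8.34% in combo. Of 10 genes that cells switch on during dissociation, such as Fos and Jun, none was past 2-fold higher over control in cancer cells, fibroblasts or macrophages, and at most 2 were lower.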

How the data were processed

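Single cell RNA was counted in 4 libraries (SeekOne MM 3' kit, per the labels' protocols). The deposited matrices hold whole UMI counts per gene and cell barcode, per the file headers and values. The submitters' processing notes name Seurat 4.0.3 and mm10; the aligner, counter, counting strand and cell calling are not given in the sources used here. Total counts were 57720774 to 111164731 per library.

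Kept cells had 200 or more genes detected and no more than 20% of UMIs from mitochondrial genes. A cell was gated to a class on its share of marker UMIs per 10000, with at least 3 marker UMIs from 2 marker genes; a cell whose second class scored at least 0.5 of the first was set aside as mixed. No doublet caller was run. Gate thresholds, and a bar on gland markers for cancer cells, were set with the data in view. Clusters used 2000 variable genes without the 45 described genes, 30 principal components, 15 neighbours and resolution 1 (scanpy 1.11.5, leidenalg 0.10.2). UMIs were summed per class and library. With 1 library per group there is no test; intervals are exact Poisson, conditional binomial and Clopper-Pearson 95% intervals for counting error only. The ratios were tested on simulated data. edgeR 4.0.16 served for TMM factors only, as an alternative. Other tools were Python 3.11.15, numpy 2.4.6, scipy 1.17.1, pandas 2.3.3 and matplotlib 3.10.9.

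A gene was described with its levels where it had at least 50 UMIs in a class of 200 or more cells and 10 CPM in 1 library; from other lists only the 3 highest or lowest genes of a comparison could be named. Members and lists were chosen with earlier results of these data known. Promoter windows came from RefSeq (GRCm38.p6), gene positions and overlaps from GENCODE M21 (GRCm38). Alternatives were class by cluster, at most 10% mitochondrial UMIs, at least 1000 UMIs, mean over cells, leaving out the 10 cells with most UMIs of a gene, TMM, 5 UMIs added and no filter on low counts.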

Additional observations from a re-analysis of the deposited data

Results flagged for a closer look

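These genes were past 2-fold over control in opposite directions in different cell classes of 1 treated library. The difference between classes was not tested, since each group is 1 library, and all values are log2 ratios over the same control library. In anti-PD-1, Mmp2 was at 1.26 in endothelial cells and -1.37 in macrophages, the second of which changed sign with class taken from the cluster. Mmp13 was at 1.61 in anti-PD-1 fibroblasts and 6.71 in endothelial cells, the second from 1 cell against a control of 0 UMIs and so no bound, and at -1.43 in macrophages. Mmp19 was at 3.01 in anti-PD-1 endothelial cells, 1.96 in neutrophils and -1.24 in cancer cells.

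With anti-LIF, Mmp13 was at 4.16 in endothelial cells, from 4 cells against a control of 0 UMIs and so no bound, and at -1.51 in macrophages. Adamts8 was at 1.6 in anti-LIF fibroblasts and -2.77 in endothelial cells. Mmp19 was at 1.25 in anti-LIF macrophages, 2.72 in endothelial cells, 1.93 in neutrophils, 1.13 in T and NK cells and -3.05 in cancer cells. Mmp25 was at 1.99 in anti-LIF neutrophils, 1.95 in T and NK cells and -1.1 in macrophages. In combo, Mmp2 was at 1.73 in T and NK cells and -1.22 in macrophages, and Mmp19 at 2.13 in endothelial cells, 1.8 in neutrophils and -2.54 in cancer cells. Control had 4 Mmp19 UMIs in endothelial cells. The combo ratio of Mmp2 in macrophages changed sign with class taken from the cluster. T and NK cells served above as the background for free RNA. Fibroblasts held 91.9% of Mmp2 UMIs and were 20.2% of kept cells in combo and 5.73% in control. The part of free RNA in the T and NK ratios of Mmp2, Mmp19 and Mmp25 was not tested.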

How the results depend on the processing

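With 1 library per group no replicate could be left out. No paired analysis was possible because each group has 1 library and the result comes from no test. Of 250 ratios of named genes, 48 were past 2-fold. Of these 48, 38 stayed so with class taken from the cluster, 39 with at most 10% mitochondrial UMIs, 47 with at least 1000 UMIs per cell, 31 as a mean over cells, 33 without the 10 cells with most UMIs of the gene, 47 under TMM scaling, 44 with 5 UMIs added and 48 with no filter.

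The counts past 2-fold over control moved by over 1.5 times as follows. In cancer cells anti-PD-1 had 5, and 10 with no filter; anti-LIF had 9, but 5 by cluster, 5 with at most 10% mitochondrial UMIs and 17 with no filter; combo had 9, but 5 with at most 10% mitochondrial UMIs and 20 with no filter. In fibroblasts anti-LIF had 8, and 16 without the 10 cells; combo had 4, but 9 as a mean over cells and 15 without the 10 cells. In macrophages anti-PD-1 had 13, but 7 by cluster, 7 as a mean over cells and 22 with no filter; anti-LIF had 15, but 9 by cluster and 9 with at most 10% mitochondrial UMIs; combo had 11, but 17 without the 10 cells and 23 with no filter. More genes are counted with no filter by construction, and leaving out 10 cells takes a larger part of a small class such as the 572 control macrophages. The cause of the other changes was not tested.

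Of ratios past 2-fold, these changed sign. Mmp19 in cancer cells, combo over anti-PD-1, was 0.71 with at most 10% mitochondrial UMIs. In macrophages over control, Mmp2 was 0.07 (anti-PD-1) and 0.06 (combo) by cluster, and 0.66 (anti-PD-1), 0.31 (anti-LIF) and 0.88 (combo) without the 10 cells. Mmp3 was 2.15 (anti-PD-1), 3.22 (anti-LIF) and 4.32 (combo) without them, and 0.19 (anti-LIF) and 1.45 (combo) as a mean over cells. Leaving out the 10 cells takes every Mmp3 UMI and most Mmp2 UMIs of control, so those sign changes follow from the step. Adamts1 was 0.09 in combo as a mean over cells, and Mmp9, combo over anti-LIF, was -0.25 by cluster. Short of 2-fold, Mmp12 in macrophages, anti-PD-1 over control, was -0.20, but 1.91 without the 10 cells. The cause of the changes other than those of Mmp2 and Mmp3 without the 10 cells was not tested.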
